A study of Mus musculus with 3 samples.

Results

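The nuclear genes of the mitochondrial respiratory chain were followed in mouse peritoneal macrophages after chromate. Members were the genes whose name on the array begins with Nduf, Uqcr, Cox4, Cox5, Cox6, Cox7, Cox8 or Atp5, or is Sdha, Sdhb, Sdhc, Sdhd or Cyc1. They came to 84 of 27598 genes, read by 117 of 41174 probes, with 37 genes in complex I, 4 in complex II, 8 in complex III, 19 in complex IV and 16 in complex V. Ndufa4 was placed in complex IV, where its protein is found. The naming rule also caught 5 genes whose products are not subunits, namely Ndufaf1, Ndufa12l (RefSeq Ndufaf2), Cox7a2l, Cox4nb (RefSeq Emc8) and Atp5s (RefSeq Dmac2l).

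The animals were male Swiss albino mice aged 8 weeks, in 3 groups of 10, and each group gave 1 array. Every mouse, controls included, had 125 µg of lipopolysaccharide into the peritoneum on day 0 and 100 ng of TPA, a phorbol ester, on day 4. The control group had TPA only, and the treated groups had TPA together with 35 or 70 nmol of potassium dichromate (the sample labels write these doses as Cr(VI)). Peritoneal cells were collected by lavage 4 days after that, and the labels do not say whether an array held RNA of 1 animal or of a pool. Lavage cells are a mixture, so fewer cells of a type and less RNA per cell cannot be told apart.

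The respiratory chain moves electrons from NADH and succinate to oxygen and stores the energy as a proton gradient. Complex I (Nduf genes) takes electrons from NADH and complex II (Sdh genes) from succinate, a step that is also part of the tricarboxylic acid cycle. Both reduce coenzyme Q. Complex III (Uqcr genes and Cyc1) passes the electrons to cytochrome c, complex IV (Cox genes) passes them to oxygen, and complex V (Atp5 genes) uses the gradient to make ATP. In macrophages, inflammatory activation with lipopolysaccharide is known to shift energy supply towards glycolysis and to change the flow of succinate through complex II.

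The promoters of many of these genes are known to carry sites for the factors NRF1 and GABP (also called NRF2), which coordinate nuclear genes of the chain. RefSeq promoter windows around the gene start on GRCm38.p6 were found for 68 of the 84 members. Windows were combined per gene, by a match in any window and by the highest G and C content. The NRF1 motif is the half-site GCGCA followed by its reverse complement, and so the same on both strands. It was present in 5 of the 68 members (7.35%), against 1.07% of 27025 genes with windows of the same length. The GABP motif CCGGAAG, searched on both strands, was present in 17 (25.0%), against 9.93% of those 27025 genes. The members' windows were also richer in G and C, with a median of 58.5% against 53.3%. Neither motif was in the windows of the 3 tissue isoforms found, Cox6b2, Cox7a1 and Cox8b. The 150 bases before the start are shown for a membrane anchor of complex II, the saturated Cox6a1, a small subunit of complex V, and for contrast 2 isoforms known from muscle. Capitals mark a motif match, which is a match of letters and not a measured site.
Sdhd, chr9:50603850-50603999, minus strand: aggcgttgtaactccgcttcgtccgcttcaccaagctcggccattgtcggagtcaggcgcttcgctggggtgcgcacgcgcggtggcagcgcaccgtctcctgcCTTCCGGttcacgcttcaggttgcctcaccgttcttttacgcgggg
Cox6a1, chr5:115348959-115349108, minus strand: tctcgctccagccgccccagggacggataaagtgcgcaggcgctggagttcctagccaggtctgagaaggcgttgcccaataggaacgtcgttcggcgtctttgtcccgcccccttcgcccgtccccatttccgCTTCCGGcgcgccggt
Atp5k, chr5:108434400-108434549, minus strand: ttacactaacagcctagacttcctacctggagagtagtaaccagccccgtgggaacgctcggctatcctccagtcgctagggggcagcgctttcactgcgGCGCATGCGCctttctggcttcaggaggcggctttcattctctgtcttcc
Cox7a1, chr7:30184021-30184170, plus strand: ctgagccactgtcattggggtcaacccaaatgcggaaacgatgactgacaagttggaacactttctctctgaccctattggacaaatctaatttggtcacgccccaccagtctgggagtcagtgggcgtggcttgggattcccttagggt
Cox8b, chr7:140900447-140900596, minus strand: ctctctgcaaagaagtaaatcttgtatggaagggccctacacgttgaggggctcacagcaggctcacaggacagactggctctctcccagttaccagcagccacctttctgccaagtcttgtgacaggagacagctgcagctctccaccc
In these 150 bases, Sdhd and Cox6a1 carried the GABP letters in the orientation CTTCCGG, and Atp5k carried the NRF1 letters. The full windows of Cox6a1 and Atp5k held both motifs, and that of Sdhd held GABP only. Cox8b was not well above background on any array, while Cox7a1 was measured on all 3.

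Levels are log2 processed signals relative to the 75th percentile of each array, which is 0 on this scale. A difference is one array's level minus another's. Of the 84 members, 80 were well above background and unsaturated on all 3 arrays. Cox6a1, the general form of subunit 6a of cytochrome c oxidase, has 1 probe, and it was saturated on every array at 7.86 with TPA only, 8.22 at 35 nmol and 8.25 at 70 nmol. Those values are the scanner's ceiling after scaling and give no difference. Cox4i2, Cox8b and Cox8c, isoforms known from lung, muscle and testis, were not well above background on any array. The median level of the 80 measured members was 4.54 with TPA only, 4.67 at 35 nmol and 4.64 at 70 nmol, and 75, 74 and 74 of them lay above the median of all genes detected on the same array.

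Since each group had a single array, no difference has a test, and each value below holds for these arrays only. Position on the slide and group cannot be told apart. Between repeated spots of a probe, the standard deviation of a difference was 0.056 for 70 nmol against TPA only, 0.062 for 35 nmol and 0.057 between the doses. The scanner software's own error is wider, with a median of 0.204 for a member's difference.

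Nearly all respiratory chain genes on the chromate arrays lay close to their TPA-only levels. At 70 nmol, 0 of 80 measured members differed 2-fold from TPA only, while of 12575 genes 1.62% lay above TPA only by 2-fold or more and 1.09% lay below by as much. At 35 nmol, 1 of 80 (Cox6a2) lay above by 2-fold or more and 0 below, beside 1.12% and 0.306% of 12762 genes. Between the doses 0 of 80 differed 2-fold, beside 0.919% of 12409 genes higher at 70 nmol and 0.717% lower. At 1.5-fold either way the members were 1 at 70 nmol (Atp5s, 1.25% of 80 against 9.36% of all genes), 1 at 35 nmol (Cox6a2, against 4.88%) and 1 between the doses (Cox6a2, against 6.5%). The share of members past 1.5-fold was thus below that of all genes in each comparison. The share of genes past 1.5-fold was itself lower among bright genes. At 70 nmol it was 6.07% for levels from 4 to 6 and 15.1% for levels under 0. Between the doses these shares were 2.79% and 11.6%, and at 35 nmol 1.20% and 8.38%. The member past 1.5-fold at 35 nmol, Cox6a2, lay in the band under 0. Of the 34 members from 4 to 6, 0% were past 1.5-fold at 35 nmol, against 1.20% of all genes at those levels.

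The members also varied less among themselves than genes at large. The interquartile range of the members' differences was 0.18 at 70 nmol, 0.14 at 35 nmol and 0.13 between the doses, against 0.34, 0.26 and 0.30 over all genes. Part of this gap went with level, since bright genes varied less too. For levels from 4 to 6 the ranges were 0.25, 0.17 and 0.22 over all genes. For the 34 members at those levels they were 0.17, 0.12 and 0.12. The 70 and 35 nmol comparisons share the TPA-only array, so their values stand side by side and are not independent of each other. The members' median difference was 0.11 at 70 nmol and 0.12 at 35 nmol, against 0.04 and 0.04 over all genes, and scaling on spike-in RNA turned both member medians negative, to -0.22 and -0.27, together with those of all genes. Between the doses the median was -0.0035 for the members and 0.0017 for all genes. Only 2 members at 70 nmol (Atp5s and Cox6a2), 2 at 35 nmol (Cox6a2 and Cox7c) and 1 between the doses (Cox6a2) went beyond 2 standard deviations of the scanner's error, where 15.1%, 7.44% and 10.55% of all genes did. That error was near 0.204 for nearly every measured member, so this count is close to a fixed fold threshold. The shares of all genes are not matched for level.

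**Figure D1:**
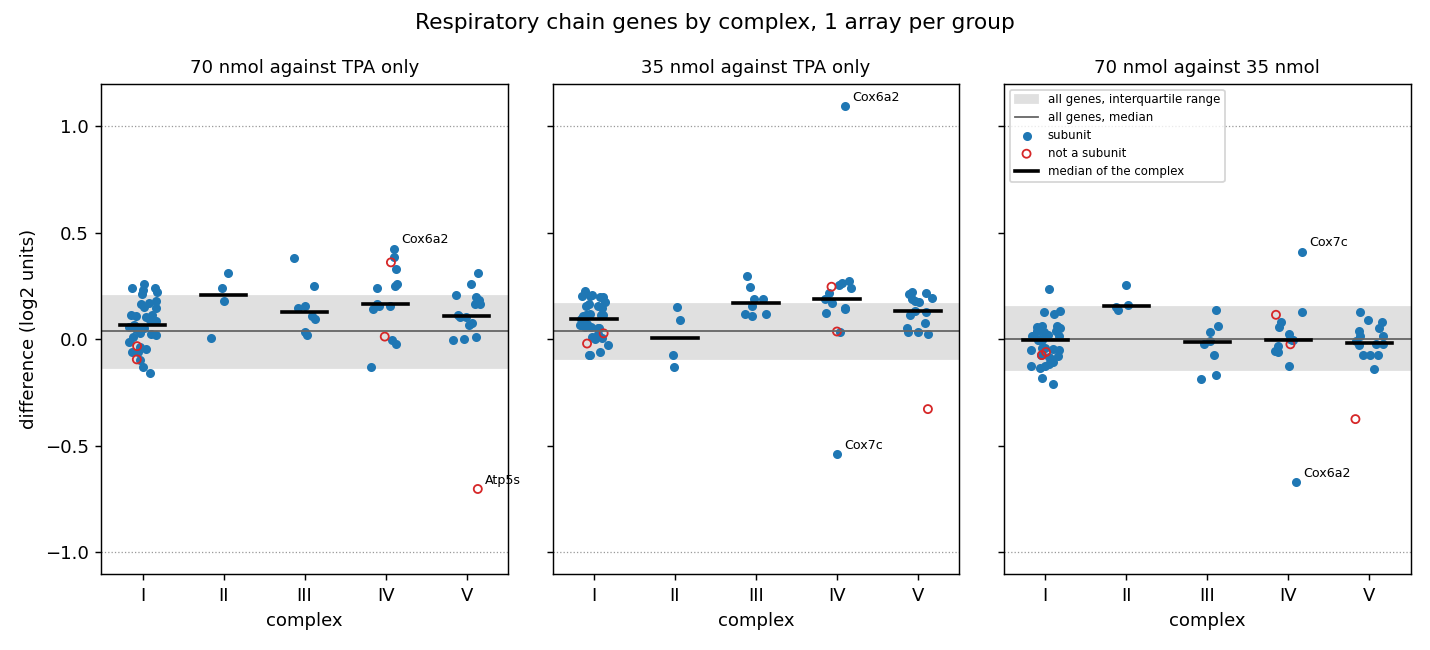
Each point is a measured member's difference (log2 units) by complex, 1 panel per comparison, with open circles for the 5 genes that are not subunits, a black bar at each complex's median, a grey band over the interquartile range of all genes, and dotted lines at 2-fold. Nearly all points lie in or near the grey band, Cox6a2 alone passes the 2-fold line at 35 nmol, and the 4 complex II genes sit above the all-gene median between the doses.

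Complex II, the smallest and the only one that is also a tricarboxylic acid cycle enzyme, was the complex whose median differed most between the doses. Sdha, the flavoprotein that oxidises succinate, had a level of 2.17 with TPA only, 2.10 at 35 nmol and 2.35 at 70 nmol. Sdhb, the iron-sulfur subunit, had 3.22, 3.31 and 3.46. These 2 catalytic subunits were highest on the 70 nmol array. Of the membrane anchors that hold the coenzyme Q site, Sdhc had 2.73, 2.60 and 2.74 and Sdhd had 4.06, 4.22 and 4.38. Sdhd was also highest at 70 nmol, whereas Sdhc was lowest at 35 nmol and within 0.01 between TPA only and 70 nmol.

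All 4 complex II genes were higher at 70 than at 35 nmol, by 0.25 (Sdha), 0.15 (Sdhb), 0.14 (Sdhc) and 0.16 (Sdhd). Each of these differences was above the repeat-spot standard deviation of 0.057. Only that of Sdha was above the scanner error of 0.204, and those of Sdhb, Sdhc and Sdhd were below it. A difference of at least the smallest of them was seen in 26.9% of all genes and in 2 of the other 76 members, Cox7c and Ndufa11. Against all genes the complex II median was shifted by 0.15 between the doses, by 0.17 at 70 nmol and by -0.03 at 35 nmol. The sign of the shift between doses was the same in all processing alternatives run, but not all of these could change it. Spike-in scaling and the other scaling move every gene of an array equally and so leave the shift as it was. The shift was 0.24 with normexp correction, 0.14 with quantile normalisation and 0.15 with a gene's probes averaged. The second, dimmer Sdha probe read 1.02, 0.85 and 0.91, which is a difference of 0.06 between the doses and of -0.10 at 70 nmol against TPA only. The 2 Sdha probes therefore had opposite signs against TPA only. On build mm8 the brighter probe lies at chr13:74788700-74788759 and the dimmer one at chr13:74794310-74794369, and their exons were not annotated here.

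**Figure D2:**
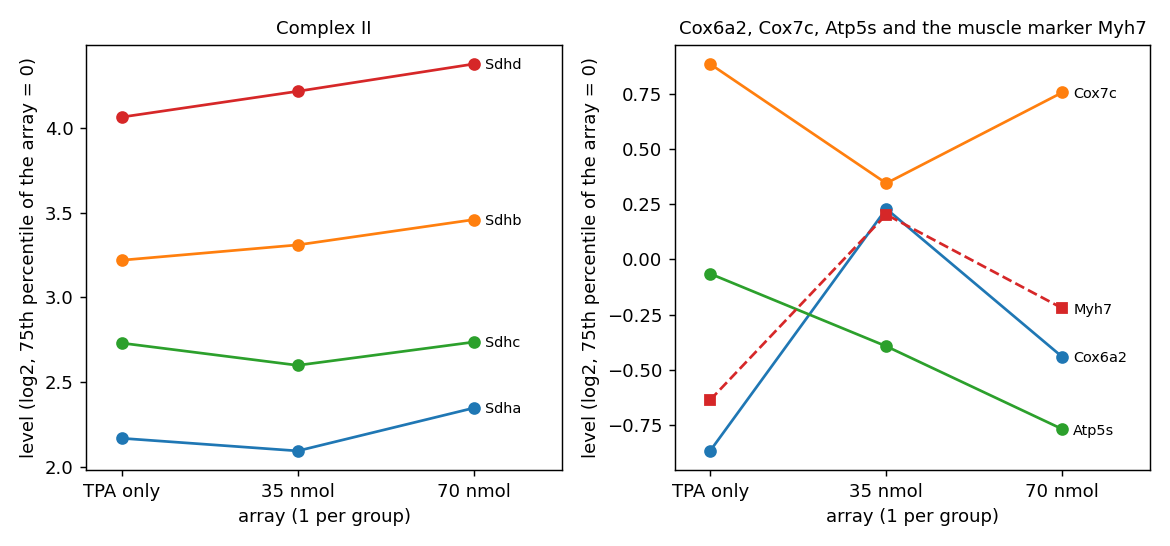
Levels (log2, with the 75th percentile of each array at 0) on the 3 arrays, 1 per group, for the 4 complex II genes (left) and for Cox6a2, Cox7c, Atp5s and the muscle marker Myh7 (right, dashed). All 4 complex II genes are higher at 70 than at 35 nmol, and Cox6a2 and Myh7 both peak at 35 nmol, unlike the muscle marker Tnnt3 (not drawn), which is highest at 70 nmol; levels of different genes are not comparable with each other.

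Complex I was the complex with the smallest shift at 70 nmol, 0.03 against all genes, and it had a shift of 0.06 at 35 nmol. Its 7 core subunits that carry the flavin and iron-sulfur clusters stayed between -0.05 and 0.24 at 70 nmol and between -0.07 and 0.16 at 35 nmol. Ndufv1, which binds NADH, read 4.54, 4.65 and 4.78 on the TPA-only, 35 and 70 nmol arrays, the largest core difference at 70 nmol (0.24). Ndufs3 read 3.69, 3.84 and 3.87, and Ndufs7, near the coenzyme Q site, read 4.73, 4.87 and 4.83. Other core subunits were nearly level. Ndufs1 read 3.95, 4.00 and 4.00, Ndufs8 read 0.48, 0.41 and 0.43, and Ndufv2 read 1.47, 1.40 and 1.46.

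The 28 accessory subunits of complex I, which surround the core and help to assemble and stabilise it, lay between -0.16 and 0.26 at 70 nmol and between -0.08 and 0.23 at 35 nmol. Ndufa5 (5.29, 5.49 and 5.55) and Ndufa11 (0.91, 0.91 and 1.15) were the highest of complex I at 70 nmol, with differences of 0.26 and 0.24. Ndufb5 (1.71, 1.76 and 1.55) and Ndufa1 (6.25, 6.30 and 6.12) were the lowest, with -0.16 and -0.13. Ndufb5 and Ndufa1 were also the lowest of complex I between the doses, at -0.21 and -0.18, and Ndufa11 (0.24) and Ndufa6 (0.13) were the highest. At 35 nmol the highest were Ndufa8 (4.59, 4.82 and 4.74) and Ndufb10 (6.27, 6.47 and 6.43). The lowest there were Ndufa6 (3.31, 3.24 and 3.37) and the core subunit Ndufv2. No member of complex I reached 1.5-fold in any comparison, and the assembly factors Ndufaf1 and Ndufa12l lay between -0.09 and 0.03 against TPA only.

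All 8 complex III genes were above TPA only in both comparisons on this scaling. The same held for 65 of 80 members and 7067 of 12575 genes at 70 nmol. At 35 nmol it held for 70 of 80 members and 7436 of 12762 genes. Spike-in scaling moved every gene by -0.33 at 70 nmol and -0.39 at 35 nmol. The shifts of complex III against all genes were 0.09 at 70 nmol and 0.13 at 35 nmol. Among the catalytic subunits, Cyc1 (cytochrome c1) read 3.96, 4.08 and 4.06, and Uqcrfs1, the Rieske iron-sulfur protein, read 3.51, 3.63 and 3.66. The core proteins Uqcrc1 and Uqcrc2 read 5.22, 5.41 and 5.47, and 4.58, 4.69 and 4.62. At 70 nmol the catalytic subunits thus differed from TPA only by 0.10 and 0.15. The widest differences were in small subunits. Uqcrq read 6.33, 6.58 and 6.71, a difference of 0.38 at 70 nmol and 0.24 at 35 nmol. Uqcrh, the hinge protein, read 7.60, 7.90 and 7.71 and was highest at 35 nmol, and Uqcr (RefSeq Uqcr11) had the same order with 5.99, 6.18 and 6.01. Between the doses these differed by 0.14 for Uqcrq, -0.19 for Uqcrh and -0.17 for Uqcr, with unlike signs. Each was above the repeat-spot standard deviation of 0.057 and below the scanner error of 0.204.

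Complex IV held the widest range at 35 nmol, from -0.54 (Cox7c) to 1.097 (Cox6a2). Of the general subunits, found in all tissues, Cox5a read 6.20, 6.46 and 6.59 and had the largest difference at 70 nmol (0.39). Cox4i1, the usual form of the regulatory subunit, read 7.32, 7.49 and 7.57, Cox5b 6.56, 6.80 and 6.80, and Cox7a2 4.53, 4.79 and 4.79. These subunits were lowest with TPA only. Cox8a (7.13, 7.35 and 7.29) and Cox6b1 (0.87, 1.01 and 1.04) had the same placing of TPA only, while Cox6c (5.07, 5.10 and 5.05) and Ndufa4 (4.18, 4.30 and 4.17) were nearly level between TPA only and 70 nmol.

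Cox7c, a small general subunit, was the exception among them. It read 0.89 with TPA only, 0.35 at 35 nmol and 0.76 at 70 nmol, a difference of -0.54 at 35 nmol from TPA only and of 0.41 at 70 from 35 nmol. It has 1 probe, whose annotated span of 878 bases on mm8 (chr13:86518268-86519145) is longer than the 60 bases of most probes. No other probe was at hand to set beside it. Cox7a2l, which links complexes III and IV and is not a subunit proper, read 4.13, 4.17 and 4.14, and Cox4nb, a membrane protein complex gene, read 0.23, 0.48 and 0.60.

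Cox6a2, the heart and skeletal muscle form of subunit 6a, was the only member past 2-fold. Its level was -0.87 with TPA only, 0.23 at 35 nmol and -0.44 at 70 nmol. The 35 nmol array stood highest, with a difference of 1.097 from TPA only and of -0.67 from 35 to 70 nmol, and the 70 nmol array lay 0.43 above TPA only. Its single probe lies at chr7:127996794-127996853 on mm8, and which exon or UTR it reads was not annotated here. The difference at 35 nmol was under 2-fold with normexp background correction (0.84) and spike-in scaling (0.71), and the stricter filter on dim probes removed Cox6a2. The other tissue isoforms measured were Cox7a1, a muscle form, at 0.62, 0.89 and 0.95, and Cox6b2, a testis form, at -0.90, -0.76 and -0.76. Neither reached 1.5-fold.

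Muscle markers were read beside Cox6a2. Of 10 listed, 4 were above background with TPA only, 3 at 35 nmol and 3 at 70 nmol, and the log2 of their summed level was 2.27, 2.63 and 2.41. Myh7, the slow myosin heavy chain, followed the same order of arrays as Cox6a2, with -0.64, 0.20 and -0.22, and its other probe did so too, with -1.41, 0.11 and -0.47. Tnni2, a fast troponin, read 1.85, 2.19 and 2.00. Tnnt3, another fast troponin and the third marker measured on all 3 arrays, went the other way, with -3.35, -3.38 and -2.76. Myh1 was above background with TPA only and on neither chromate array, which also differs from the order of Cox6a2. The defining muscle transcripts Acta1, Ckm, Mb, Myh2, Myh4 and Myh6 were not well above background on any array. The part of muscle RNA in the Cox6a2 difference was not tested.

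Complex V differed little across its functional parts. In the catalytic F1 head, Atp5a1 read 5.72, 5.75 and 5.73, Atp5b 6.59, 6.72 and 6.70, and Atp5c1 6.72, 6.91 and 6.84. Atp5d read 4.38, 4.60 and 4.64 and Atp5e 7.21, 7.38 and 7.37, so that all 5 head subunits lay between 0.01 and 0.26 at 70 nmol. The 3 genes of the proton-turning c ring encode the same mature protein. Atp5g1 read 4.25, 4.44 and 4.46, Atp5g2 6.79, 6.98 and 6.90, and Atp5g3 5.92, 6.14 and 6.23. Atp5g3 had the highest difference of complex V, 0.31 at 70 nmol and 0.22 at 35 nmol.

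In the stalk and membrane part of complex V, Atp5o, which holds the head to the stalk, read 5.48, 5.59 and 5.68. Atp5f1 (RefSeq Atp5pb) read 5.22, 5.26 and 5.39, and Atp5h read 5.87, 5.89 and 5.87. Atp5k, whose promoter stretch is printed above, read 4.02, 4.23 and 4.09, and Atp5j2 read 5.33, 5.40 and 5.32. Atp5k was the lowest subunit of complex V between the doses, at -0.14. Atp5s, an assembly-related gene caught by its name and not a subunit, read -0.06, -0.39 and -0.77. It was the only member past 1.5-fold at 70 nmol, with a difference of -0.70, or -0.49 after normexp correction, and its other probe was not well above background on any array. Without the 5 genes that are not subunits, 0 of 75 subunits were past 1.5-fold at 70 nmol.

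Members with several usable probes showed how far a difference depended on the probe. In 19 such members the brighter probe gave the higher difference in 15 at 70 nmol and in 16 at 35 nmol, but in 8 between the doses. Over 4043 genes with several probes, the shares were 62.4%, 65.5% and 48.2%. Both probes had the same sign in 10 of the 19 members at 70 nmol, 10 at 35 nmol and 15 between the doses. The widest gap was 0.63 at 70 nmol and 0.61 at 35 nmol, both for Atp5j2, whose dimmer probe read -2.55, -3.09 and -3.19.

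**Figure D3:**
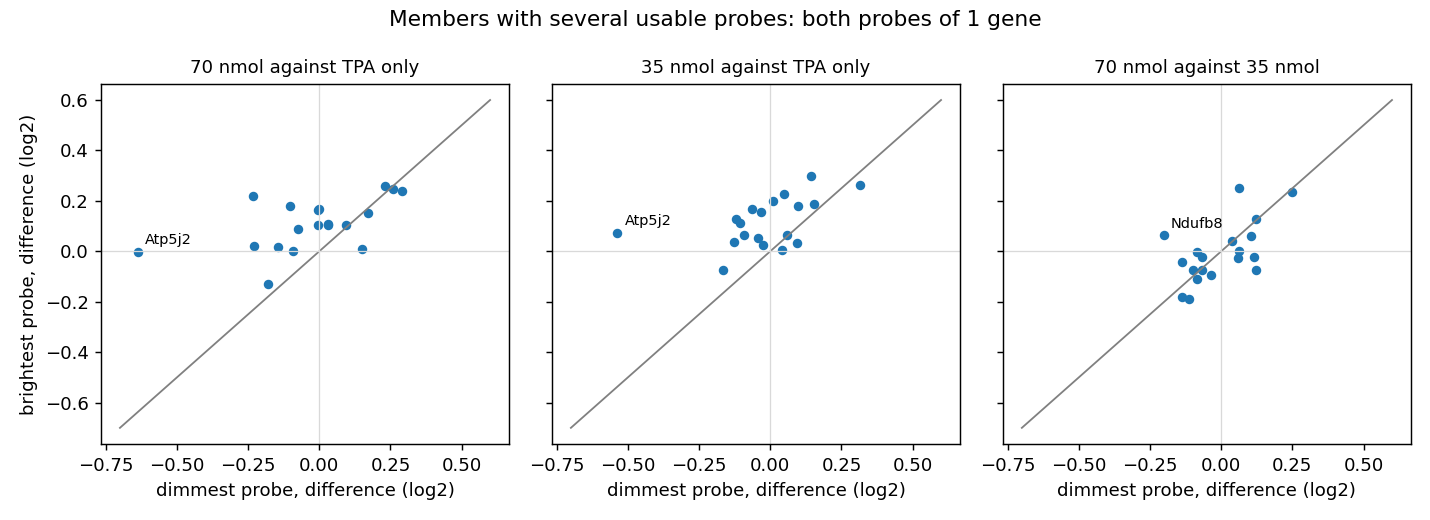
Each point is 1 of 19 members with several usable probes, placed by the difference (log2) of its dimmest probe (x) and its brightest probe (y), 1 panel per comparison, with a line of equality. Against TPA only, 15 and 16 of the 19 points lie above the line, and between the doses 8 do.

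The same dependence on signal held across levels. For all genes, the median difference at 70 nmol was -0.02 for mean levels under 0, 0.02 from 0 to 2, 0.06 from 2 to 4, 0.10 from 4 to 6 and 0.11 above 6. The members in the bands that hold most of them, 34 from 4 to 6 and 20 above 6, had medians of 0.11 and 0.13. At 35 nmol these medians were 0.11 and 0.14 for all genes and 0.12 and 0.19 for the members. The members' medians thus lay near those of genes of like level. Quantile normalisation, which forces the same distribution on all arrays, left a shift of the members against all genes of 0.00021 at 70 nmol and 0.03 at 35 nmol.

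**Figure D4:**
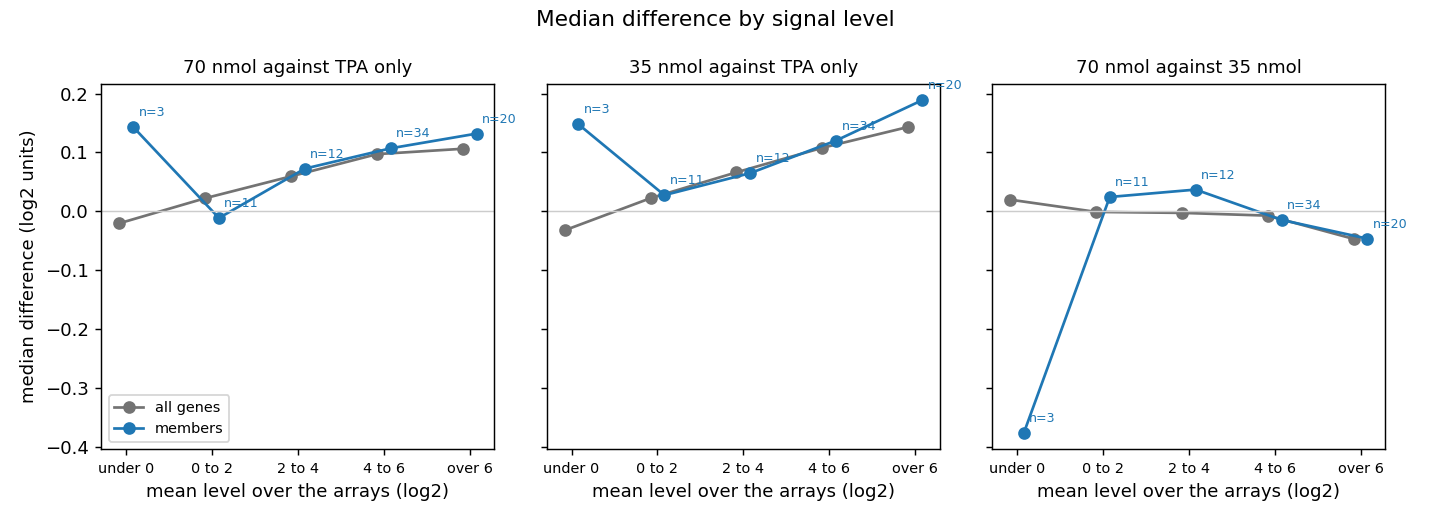
Median difference (log2 units) of all genes (grey) and of members (blue, n given) by mean level over the arrays, 1 panel per comparison. Against TPA only the all-gene median climbs with level throughout and the members' median climbs from the band of 0 to 2 upwards; the band under 0 holds 3 members, Cox6a2, Cox6b2 and Atp5s.

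Other genes around the chain were read from lists. Of 13 subunits encoded by mitochondrial DNA, 3 had a probe. Cytb of complex III read 6.93, 7.29 and 6.97, and a probe named ND4L, which its description gives as NADH dehydrogenase 4, read 6.20, 6.44 and 6.22. Both were highest at 35 nmol, by 0.36 and 0.23, and the COX2 probe (cytochrome c oxidase II) was saturated on all arrays. The array's cRNA was primed with oligo-dT, per the labels' protocols. Of 13 tricarboxylic acid cycle enzymes, 0 reached 1.5-fold, beside 9.36% of all genes at 70 nmol, and their median at 70 nmol was 0.10. Dlst (0.41) was highest there, and Suclg2 (-0.32), Ogdh (-0.07) and Idh3b (-0.07) lowest. The other Suclg2 probe had the opposite sign (0.55), and the 2 other Dlst probes read 0.16 and -0.01.

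Complex assembly factors had a median of 0.0050 at 70 nmol over 37 measured. Of all genes 9.36% were past 1.5-fold there, and of these factors 1. That was Coa5, a factor for complex IV, at 2.56, 3.04 and 3.34, although its other probe differed by 0.13. Ttc19 (0.55) was next, and Tmem126b (-0.48) and Cox20 (-0.31) were lowest. Of the electron carriers and coenzyme Q genes, 16 were measured, with a median of 0.06 and, beside the same 9.36%, 1 past 1.5-fold. This was Cycs, cytochrome c, which carries electrons from complex III to complex IV. It read 4.26, 4.59 and 4.89, and its 3 probes differed at 70 nmol by 0.63, 0.36 and 0.18. Coq10b (0.57) was next, and Coq4 (-0.54) and Dhodh (-0.25) were lowest.

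Among 18 measured regulators of mitochondrial biogenesis the median at 70 nmol was -0.13, with 1 past 1.5-fold each way. Of all genes, 9.36% were past 1.5-fold in either direction. Ppargc1b, a coactivator of oxidative metabolism genes, read 0.66, 1.04 and 1.55, and its 3 probes were all higher at 70 nmol, by 0.89, 0.62 and 0.52. Esrra, an orphan receptor it works with, read 3.25, 3.56 and 3.58, and Mterf1a (-0.59) and Gabpb1 (-0.40) were lowest. Ppargc1a was not well above background on any array, and Nrf1 (-0.15) and Gabpa (0.07), the factors behind the motifs above, stayed near TPA only. Of the carriers, channels and uncouplers, 9 were measured with a median of 0.23. Ucp3 (0.98) was highest on a dim probe that was not above background at 35 nmol, followed by Slc25a5 (0.35), the ADP and ATP exchanger at 6.55, 6.59 and 6.90. Slc25a4 (-0.09) and Atpif1 (0.02) were lowest. No measured gene of these lists reached 2-fold, beside 1.62% of all genes higher and 1.09% lower at 70 nmol.

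The cells were checked against macrophage markers, of which 9 of 10 were above background and unsaturated on each array, with a median difference of 0.04 at 70 nmol and -0.02 at 35 nmol. Other cells' markers differed between the arrays. Of 17 hepatocyte markers on the array, 13 were above background with TPA only, 16 at 35 nmol and 1 at 70 nmol, with a log2 summed level of 4.23, 5.94 and -0.61. Fibroblast markers summed to 3.27, 3.45 and 5.03, erythroid markers to 6.55, 4.03 and 5.74 and mast cell markers to 5.13, 4.52 and 3.78. Large peritoneal macrophage markers had a median difference of -0.98 at 70 nmol, with 5 of 11 at least 2-fold lower. Monocyte and small peritoneal macrophage markers had a median of 0.61 at 70 nmol, with 1 of 6 at least 2-fold higher. Neutrophil markers had a median of 1.02, with 3 of 5 at least 2-fold higher and 1 lower. Of all genes at 70 nmol, 1.62% were higher by as much and 1.09% lower. The part of cell mixture in the members' small differences was not tested.

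Genes of the chain that the array lists under other names were left out by the rule. Of these, Uqcr10, Ndufv3, Atp5mpl and Atp5md differed at 70 nmol by 0.08, -0.09, 0.17 and 0.14, and at 35 nmol by 0.18, 0.0023, 0.19 and 0.15. These subunits lay within the range of the members of their complexes. Assembly factors under other names did not all do so. At 70 nmol Ndufaf5 (-0.22) and Ndufaf7 (-0.19) lay below the lowest complex I member (-0.16). They did so at 35 nmol too (-0.20 and -0.16, against -0.08), where Ndufaf4 (0.30) lay above the highest (0.23). Ndufaf3 and Ndufaf6 lay within the range at both doses.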

How the data were processed

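Spot intensities were deposited by the authors as Agilent Feature Extraction 10.5.1.1 output, per the file headers, with background subtracted and spatial trends removed. Probe positions are on mm8. Well above background is the software's own flag, at a multiple of 13. The log2 value table that the authors deposited differed from log2 of the processed signal by a constant per array (8.00, 7.61 and 7.67 for TPA only, 35 and 70 nmol), within 0.01 for 99.7%, 99.8% and 99.8% of probes. Its medians were -3.60, -3.74 and -3.78.

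Here the log2 processed signal was scaled to each array's 75th percentile over 43379 non-control spots. Outlier spots were dropped and spots of a probe averaged. A gene's value came from its brightest probe that was flagged above background on some array and saturated on none. It counted as measured between a pair of arrays when flagged on both. Of 41174 probes, 49.0%, 45.9% and 45.1% carried the flag. Members kept their array names, and other probes were named through RefSeq (GRCm38.p6) by accession (24375 probes), symbol or unique synonym. A list name that is itself a RefSeq symbol was not read as another gene's synonym.

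Single arrays allowed no test, and their number limits the precision. The members and lists were chosen with earlier results of these data known. Named genes were a set of catalytic and isoform genes, the 2 highest and 2 lowest of each complex in each comparison, every member past 1.5-fold, saturated or partly detected, and the 2 highest and 2 lowest of each list at 70 nmol. Nrf1, Gabpa, Ppargc1a and the muscle markers were added after their values were seen. Some genes that the rule selects are not reported here. Alternatives were normexp (offset 50), quantile normalisation, 2 other scalings, 2 other filters, 2 other probe rules, subunits only, the deposited table and a 1.5-fold threshold. The steps were tested on simulated data. Software was Python 3.11.15 (pandas 2.3.3, numpy 2.4.6, matplotlib 3.10.9) and R 4.3.3 (limma 3.58.1).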

Additional observations from a re-analysis of the deposited data

How the results depend on the processing

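No paired analysis was possible because each group has 1 array. The sign of the Cox6a2 difference at 35 nmol held in every alternative that measured it. Normexp correction moved the member median to 0.045 at 70 nmol and 0.053 at 35 nmol, the count past 2-fold at 35 nmol to 0, the complex I shifts to -0.026 and -0.014, and the complex II shifts to -0.095 at 35 nmol and 0.24 between the doses. Quantile normalisation gave medians of -0.0040 and 0.038, a shift of 0.00021 for all members at 70 nmol, and complex V shifts of -0.015 and 0.014. Spike-in scaling (7 of 10 probes) moved the medians to -0.22 and -0.27 and the counts to 1 at 70 nmol (Atp5s) and 0 at 35 nmol. The all-gene median moved by -0.33 and -0.39, and the share of 2-fold calls that were higher from 59.8% to 20.9% at 70 nmol and from 78.6% to 25.1% at 35 nmol. The looser filter gave 1 member past 2-fold at 70 nmol (Cox4i2), and the stricter one 0 at 35 nmol. Averaging a gene's probes gave a complex II shift of 0.11 at 70 nmol. At 1.5-fold the counts were 1 at 70 nmol and 1 between the doses.

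Over all genes, the counts higher and lower were 204 and 137 at 70 nmol, 143 and 39 at 35 nmol and 114 and 89 between the doses. They were 80 and 49, 55 and 11, and 39 and 20 with normexp; 617 and 742, 577 and 542, and 526 and 520 with the looser filter; 70 and 34, 16 and 10, and 33 and 17 with the stricter one; and 95 and 360, 75 and 224, and 131 and 75 with spike-in scaling. Low signal limits precision: all genes with levels under 0 had an interquartile range of 0.47 at 70 nmol, against 0.25 from 4 to 6.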
